A study of Mus musculus with 24 samples.

Results

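The Myc, Max and Mxd network is a family of transcription factors. Here 10 of its genes were followed through the hair cycle in dermal papilla (DP) cells. The cells came from control mice and from mice with the histone deacetylases Hdac1 and Hdac2 deleted in the DP. The members were taken by gene symbol and are Myc, Mycn, Mycl, Max, Mxd1, Mxd3, Mxd4, Mxi1, Mnt and Zbtb17. All 10 were found among the 25755 genes of the series.

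Myc, Mycn and Mycl bind DNA as pairs with Max and activate genes for ribosome making, metabolism and cell division. Mxd1, Mxd3, Mxd4, Mxi1 and Mnt compete for Max and for the same DNA letters, the E-box, and repress through Sin3, a scaffold that carries Hdac1 and Hdac2. Zbtb17, also called Miz-1, is a zinc finger protein through which Myc can repress genes such as cell-cycle inhibitors. In the hair follicle the DP is the mesenchymal cluster at the base that signals to the epithelium, and its cells divide little while the matrix keratinocytes around it divide fast.

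DP cells were sorted from mouse skin at postnatal day 20 (P20, first telogen, the resting phase), P24 and P28 (early and mid anagen, the growth phase, of the second cycle) and P60 (second telogen). At each age there were 3 libraries from control mice and 3 from dM1/2 mice, in which Corin-Cre, active in the DP, deletes both floxed copies of Hdac1 and of Hdac2. The paper reports incomplete deletion, with Hdac1 and Hdac2 still stained in some mutant DP cells of the first cycle. According to the study's methods, the controls carried Corin-Cre as well, with floxed alleles of Hdac1, Hdac2 or both. The listed control genotypes include mice with both copies of Hdac1 or both of Hdac2 floxed and an unfloxed copy of the other gene. The labels do not say which control genotype a library had. Cells went through successive sorts for a YFP reporter at ROSA26, from crosses of C57BL/6J lines with the Corin-Cre line kept on FVB. RNA was depleted of ribosomal RNA, and the values are normalized reads, the reads on a gene divided by a size factor of its library. Bulk values cannot tell fewer cells of a kind from less RNA per cell.

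Depth on genes was 35469841 to 49331751 reads in the 12 anagen libraries and 8171944 to 13369732 in the 12 telogen libraries. Xist was at 8113 normalized reads or more in the telogen libraries with Ddx3y at 0, and at 3.92 or less in the anagen libraries with Ddx3y at 969 or more, so that stage cannot be told apart from sex or depth. Hdac1 had 675, 668 and 668 normalized reads in P24 controls and 209, 188 and 116 in P24 dM1/2, a log2 fold change of -2.01 ± 0.22 (SE, adjusted p = 0.00167). At P28 Hdac1 had 214, 529 and 105 in controls and 190.2, 149 and 126 in dM1/2, so that the library labelled P28 control 3 lay below every dM1/2 library. The Hdac1 difference at P28 was -0.58 ± 0.55 (SE, adjusted p = 0.454), at P20 -0.72 ± 0.22 (SE, adjusted p = 0.122) and at P60 -0.25 ± 0.19 (SE, adjusted p = 0.986), and these 3 did not pass. Hdac1 passed at P28 without P28 control 3, at -1.13 (limma, adjusted p = 0.0426), and at P20 without P20 control 1, at -0.87 (limma, adjusted p = 0.0413). Hdac2 passed at no age, with log2 fold changes from -0.01 to 0.27. Counts over a whole gene also take in any exons outside a floxed segment. The sources used here do not name the floxed exons, and no exon was counted alone. The Hdac2 values therefore do not test its deletion, and the same limit holds for Hdac1. The cause of the low Hdac1 in P28 control 3 was not tested, and the methods allow controls with both Hdac1 copies floxed. Because of this value, the P28 members, Hdac1, Hdac2, list counts and list genes named by size were also fitted without that library. The markers, levels per kilobase, separation of groups and correlations were not. The 18 DP markers were detected in all 24 libraries.

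Between dM1/2 and control, members of the network passed the test at both anagen ages and at neither telogen age. Nearly all calls over all genes were in anagen too. At P24, 3 of the 10 members rose and 0 fell in limma. That is near the share over all genes, where 26.6% of 14028 tested genes passed the threshold of an adjusted p of 0.05. At P28, 6 of 10 rose and 0 fell, where 35.5% of 14126 tested genes passed. At P20, 0 of 10 members passed in limma, where 0.433% of all genes did, with 4 members at an unadjusted p under 0.05, 0 passing in edgeR and 2 in DESeq2. At P60, 0 of 9 tested members passed in limma, where 0% of all genes did, with 0 members at an unadjusted p under 0.05 and 0 in edgeR and in DESeq2. Over all genes at P60, 525 had an unadjusted p under 0.05 in limma, and edgeR called 0 and DESeq2 26. From P20 through P24 and P28 to P60, the members had median log2 fold changes of 0.18, 0.38, 0.75 and 0.08, beside medians over all genes of -0.01, -0.01, 0.00 and 0.02. Without P24 control 3 the count at P24 was 5 higher and 0 lower, and without P28 control 3 the count at P28 was 5 higher and 1 lower, as given for Mxd1, Mnt and Myc in what follows.

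**Figure D1:**
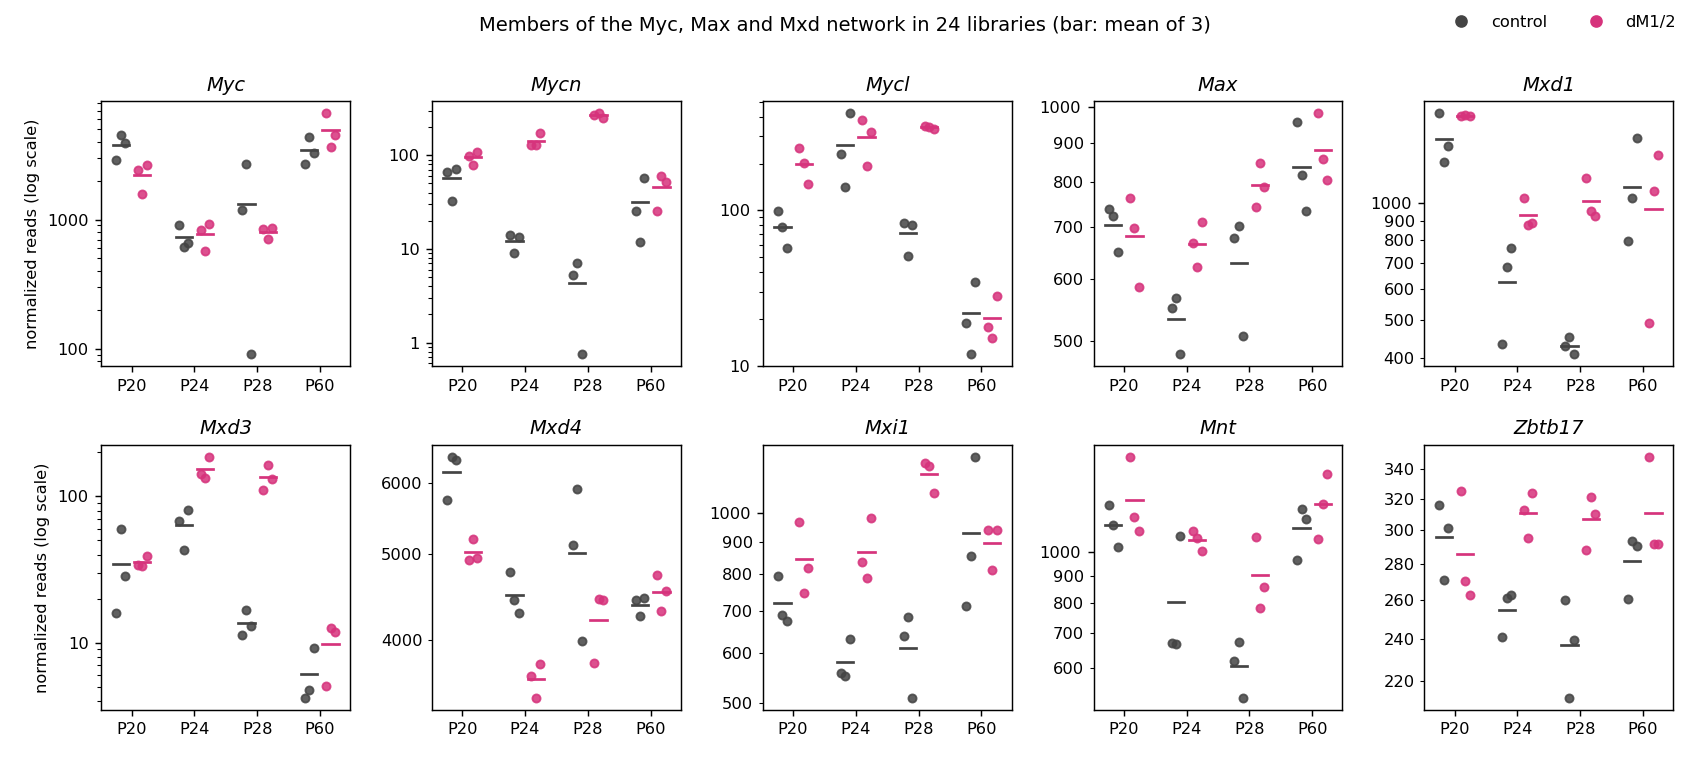
Normalized reads of the 10 members in each library on a log axis that differs between panels, by age, with controls in grey, dM1/2 in pink and a bar at the mean of 3 libraries. Mycn, Mycl and Mxd3 in dM1/2 at P28 lie far above the controls of that age, while the P28 controls of Myc run from 91.0 to 2703.

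**Figure D2:**
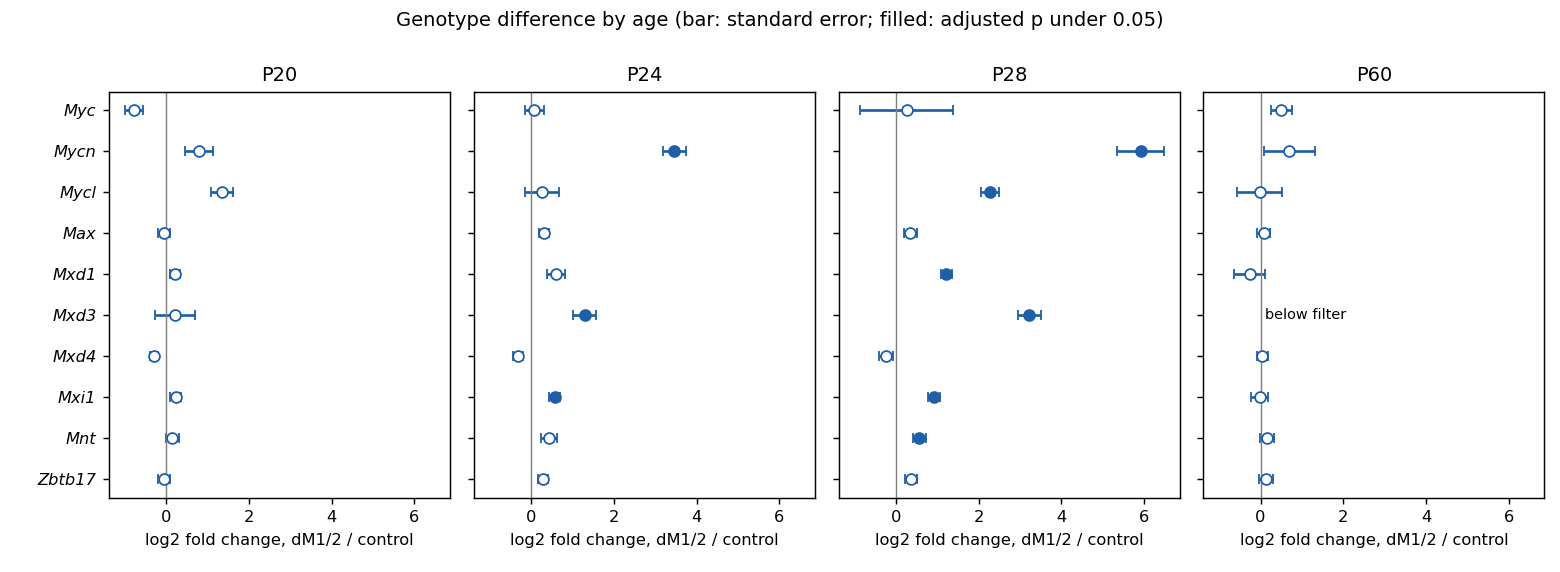
Log2 fold change of each member between dM1/2 and control at 4 ages, with the standard error as a bar and filled points for an adjusted p under 0.05 in limma. The filled points are 3 at P24 and 6 at P28, from 0.57 for Mnt to 5.92 for Mycn.

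Mycn showed the largest difference between dM1/2 and control of the 10 members at P24 and at P28. Mycn encodes N-Myc, the Myc protein best known from embryonic and neural progenitors and from neuroblastoma. Mycn (ENSMUSG00000037169) lies at chr12:12936093-12941914 on the minus strand of GRCm38. At P24 it had 13.9, 9.04 and 13.5 normalized reads in controls and 127, 129 and 175 in dM1/2, and all mutant libraries lay above all controls. At P28 the controls had 5.22, 7.04 and 0.758 and the dM1/2 libraries 272, 279.8 and 251. The P28 control values rest on 12, 11 and 2 reads, so Mycn was close to undetected in control DP at mid anagen. Only genes averaging 10 or more normalized reads in the fitted libraries were tested. With means of 4.34 in P28 controls and 268 in P28 dM1/2, Mycn met this filter at P28 only through the dM1/2 libraries. It was under the filter in the control fit of P28 against P24. With no filter the P28 difference between genotypes also passed (limma, adjusted p = 0.000691). The log2 fold change was 3.46 ± 0.28 (SE, adjusted p = 0.000842) at P24 and 5.92 ± 0.57 (SE, adjusted p = 0.0007) at P28, which is 11.0-fold and 60.3-fold on the scale of log2(normalized reads + 1). That scale understates the change of a low gene and depends on the added constant. With 10 added in place of 1, the values were 2.79 and 4.30 and both passed, and without P28 control 3 the P28 value was 5.25 (limma, adjusted p = 3.2e-05).

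In telogen the same gene did not pass. Mycn had 67.0, 32.5 and 71.7 normalized reads in P20 controls and 97.8, 79.7 and 107 in P20 dM1/2, where the groups did not overlap but the log2 fold change of 0.79 had an adjusted p of 0.229 in limma. At P60 the values were 25.2, 11.9 and 57.6 against 25.2, 60.3 and 51.8, overlapping, with a log2 fold change of 0.70 (limma, adjusted p = 0.986). Within dM1/2, Mycn rose further from P24 to P28, with a log2 difference of 0.91 ± 0.17 (SE, adjusted p = 0.0288), where 2.67% of all genes passed and Mycn was the single member of 10 to do so. That call was lost in 5 of the 6 fits that left out 1 library, with adjusted p up to 0.153 in limma. In controls Mycn was lower in anagen than in telogen, with a log2 difference of -2.34 ± 0.48 (SE, adjusted p = 0.00249).

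Mycl rose at P28 and did not pass the threshold at P24. It encodes L-Myc, a Myc family member of weaker transforming activity first found in lung cancer. Mycl (ENSMUSG00000028654) is at chr4:122995652-123002485 on the plus strand of GRCm38. P28 controls had 82.6, 50.6 and 80.8 normalized reads and dM1/2 349.7, 344 and 333, with no overlap and a log2 fold change of 2.28 ± 0.23 (SE, adjusted p = 0.000768), and without P28 control 3 it was 2.38 (limma, adjusted p = 0.000325). At P24 the controls were already high, at 231, 141 and 420.0, and overlapped with 381, 192 and 319 in dM1/2, for a log2 fold change of 0.26 ± 0.41 (SE, adjusted p = 0.692). The highest of these P24 values belonged to P24 control 3, a control library. At P20 the controls had 99.1, 78.5 and 57.4 and dM1/2 250.1, 201 and 148, separated but short of the threshold at 1.34 ± 0.27 (SE, adjusted p = 0.0662). Without P20 control 1 the P20 difference was 1.53 and passed (limma, adjusted p = 0.019), and it also passed in DESeq2 (adjusted p = 0.00375). At P60 all 6 libraries were low, from 11.9 to 34.6, and overlapped.

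Mxd3 was the third member with a large rise, at both anagen ages. It encodes Mad3, a repressor partner of Max that is unusual in its group for being expressed in dividing cells during S phase rather than in differentiating cells. Mxd3 (ENSMUSG00000021485) is at chr13:55325168-55329823 on the minus strand of GRCm38. It had 67.7, 42.7 and 80.2 normalized reads in P24 controls and 143, 133 and 185 in P24 dM1/2, and at P28 11.3, 16.7 and 12.9 against 111, 165 and 131. The groups did not overlap at either age, and the log2 fold change was 1.29 ± 0.28 (SE, adjusted p = 0.0135) at P24 and 3.22 ± 0.28 (SE, adjusted p = 0.00052) at P28. Without P24 dM1/2 replicate 3, the P24 value was 1.15 and missed the threshold (limma, adjusted p = 0.0546), while at P28 it stayed between 3.07 and 3.37 in the 6 fits that left out 1 library. At P20 the controls of Mxd3 ran over 16.1, 59.5 and 28.7 and enclosed the dM1/2 values of 34.1, 33.2 and 38.8. At P60 Mxd3 was under the filter, with 4.20 to 12.6 normalized reads in 6 libraries.

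Mxd3 shares 105 exonic bases with Prelid1 on the opposite strand, and the strand setting of the counting is not given in the sources used here. Prelid1 averaged 1454 normalized reads over 24 libraries against 56.6 for Mxd3. Its log2 fold change was 0.10 at P24 (adjusted p = 0.703) and 0.21 at P28 (limma, adjusted p = 0.394), neither past the threshold.

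The promoters of these 3 members are shown because Mycn, Mycl and Mxd3 had the largest differences at P28 and rose there together. Each window is RefSeq sequence of GRCm38.p6 from 250 bases before to 50 bases after a start given by RefSeq, read 5′ to 3′ on the strand of the gene. These starts lie inside the genes as annotated by GENCODE, whose positions are given above, by 78 bases for Mycn, 279 for Mycl and 92 for Mxd3, so the Mycl window lies wholly within the GENCODE gene. Capitals mark matches, on either strand, to the letters TTTCCCGC, TTTGGCGC or TTTCGCGC, which E2F factors of the cell cycle can bind, and matches may overlap. The windows are chr12:12941787-12942086 for Mycn (minus strand), chr4:122995681-122995980 for Mycl (plus strand) and chr13:55329682-55329981 for Mxd3 (minus strand).
Mycn: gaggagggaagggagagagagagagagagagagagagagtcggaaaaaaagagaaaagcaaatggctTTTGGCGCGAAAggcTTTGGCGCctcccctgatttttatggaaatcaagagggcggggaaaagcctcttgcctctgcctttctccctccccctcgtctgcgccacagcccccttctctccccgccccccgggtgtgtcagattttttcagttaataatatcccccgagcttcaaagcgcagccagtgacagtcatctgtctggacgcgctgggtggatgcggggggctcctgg
Mycl: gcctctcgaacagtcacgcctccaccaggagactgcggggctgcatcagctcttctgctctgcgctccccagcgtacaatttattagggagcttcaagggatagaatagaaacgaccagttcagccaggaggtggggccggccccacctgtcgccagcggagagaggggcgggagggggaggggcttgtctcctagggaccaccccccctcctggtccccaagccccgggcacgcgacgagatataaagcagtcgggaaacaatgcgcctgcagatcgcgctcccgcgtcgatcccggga
Mxd3: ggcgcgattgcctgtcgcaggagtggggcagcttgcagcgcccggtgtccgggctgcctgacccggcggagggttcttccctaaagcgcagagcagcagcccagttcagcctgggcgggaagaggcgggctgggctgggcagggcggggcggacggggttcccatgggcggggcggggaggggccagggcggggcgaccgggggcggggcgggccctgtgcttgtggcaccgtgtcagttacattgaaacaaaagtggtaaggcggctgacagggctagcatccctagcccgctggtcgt
Mycn holds 3 matches, the first bases of which are 183, 179 and 168 bases before the RefSeq start, and the first and second of them overlap. Mycl and Mxd3 hold none in these windows, and no sequence before the GENCODE start of Mycl was searched. Of 32851 RefSeq promoter windows of the same length, 606 (1.84%) hold at least 1 such match. The E-box letters CACGTG, which Myc, Max and Mxd pairs bind, occur once each in the windows of Max, Mxd4 and Mnt, of 9 members with a window, and in 2349 (7.15%) of all windows. Letters alone do not show that a factor binds there.

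Myc itself did not pass the threshold at any age, and its highest and lowest P28 controls were further apart in fold than those of any other member. Myc encodes c-Myc, the most widely expressed member of its family and a driver of growth and division in many tissues. Myc (ENSMUSG00000022346) is at chr15:61985391-61990374 on the plus strand of GRCm38. In P28 controls it had 1194, 2703 and 91.0 normalized reads, and in P28 dM1/2 846, 705 and 856. The dM1/2 values fell inside the control range, for a log2 fold change of 0.26 ± 1.12 (SE, adjusted p = 0.88). Without P28 control 3 this became -1.17 and passed (limma, adjusted p = 0.0194), and with all libraries the count models gave -0.70 in edgeR and -0.75 in DESeq2 without passing. The direction of the Myc difference at P28 therefore depended on 1 library and on the model. Hdac1 ran in the same order over the P28 controls, with 214, 529 and 105 normalized reads. Mycn, Mycl and Mxd3 in P28 control 3 stayed at 0.758, 80.8 and 12.9 normalized reads, within or below the range of the other 2 controls.

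At P24, Myc had 905, 618 and 656 normalized reads in controls and 830.1, 572 and 921 in dM1/2, overlapping, with a log2 fold change of 0.08 ± 0.22 (SE, adjusted p = 0.814). At P20 it was lower in all dM1/2 libraries, at 2413, 1578 and 2650.3, than in the controls at 2893, 4542 and 3938. That difference of -0.79 ± 0.22 (SE, adjusted p = 0.106) missed the threshold. It passed without P20 control 1, at -0.97 (limma, adjusted p = 0.027), and in DESeq2, at -0.76 (adjusted p = 0.0151). At P60 the order was the other way, with 2706, 4347 and 3262 in controls and 6647, 3671 and 4495 in dM1/2, overlapping, and a log2 fold change of 0.51 (limma, adjusted p = 0.986). In controls Myc was lower in anagen than in telogen, with a log2 difference of -2.36 ± 0.64 (SE, adjusted p = 0.0112).

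Per kilobase of exon, Myc made up most of the family's reads at every age, and the share of Mycn and Mycl was larger in anagen dM1/2 cells than in telogen. The length of a gene was that of all its annotated exons merged, not of the transcript expressed. Levels and shares compared between genes therefore depend on the annotation. Mycn and Mycl together made up 35.2, 39.6 and 33.5% of the reads per kilobase of the Myc family in P28 dM1/2. In P28 controls the share was 4.78, 1.45 and 37.6%, where the third value is that of the library with 91.0 normalized reads of Myc. At P24 it was 15.6, 14.2 and 30.9% in controls and 30.3, 29.2 and 28.0% in dM1/2, which overlapped through P24 control 3. At P20 it was 4.04, 1.72 and 2.42% in controls and 9.35, 11.3 and 6.62% in dM1/2, with no overlap, and at P60 it was at most 2.12% in any library. In mean reads per kilobase at P28, Mycn went from 1.32 ± 0.982 in controls to 81.2 ± 4.46 in dM1/2 (SD, n = 3), Mycl from 17.7 ± 4.46 to 84.8 ± 2.07, and Myc from 489 ± 483 to 295 ± 31.1. In P28 dM1/2, Mycn and Mycl thus had levels per kilobase that did not differ beyond their spread, both under Myc.

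Over the whole network, the order of the levels per kilobase at P28 differed between the genotypes at its lower end. In P28 controls the mean reads per kilobase were 590.2 ± 114 for Mxd4, 489 ± 483 for Myc, 175 ± 29.9 for Max and 131 ± 16.0 for Mnt (SD, n = 3). Below them came Mxi1 at 89.5 ± 13.2, Zbtb17 at 61.2 ± 6.09, Mxd1 at 60.8 ± 3.0, Mycl at 17.7 ± 4.46, Mxd3 at 5.75 ± 1.16 and Mycn at 1.32 ± 0.982. In P28 dM1/2 the same order began with Mxd4 at 497 ± 46.0, Myc at 295 ± 31.1, Max at 221 ± 14.5, Mnt at 195 ± 31.7 and Mxi1 at 169 ± 10.1. It went on with Mxd1 at 143 ± 17.9, Mycl at 84.8 ± 2.07, Mycn at 81.2 ± 4.46, Zbtb17 at 79.1 ± 4.35 and Mxd3 at 57.3 ± 11.5. Neighbours in this order whose ranges of mean ± SD overlapped were Myc and its neighbours, Max and Mnt, and Zbtb17 and Mxd1 in controls. In dM1/2 they were Max and Mnt, Mnt and Mxi1, Mxi1 and Mxd1, and Mycl, Mycn and Zbtb17. On this scale of merged exon length, Mycn, the last of the 10 in P28 controls, was thus at the level of Mycl and Zbtb17 in P28 dM1/2.

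**Figure D3:**
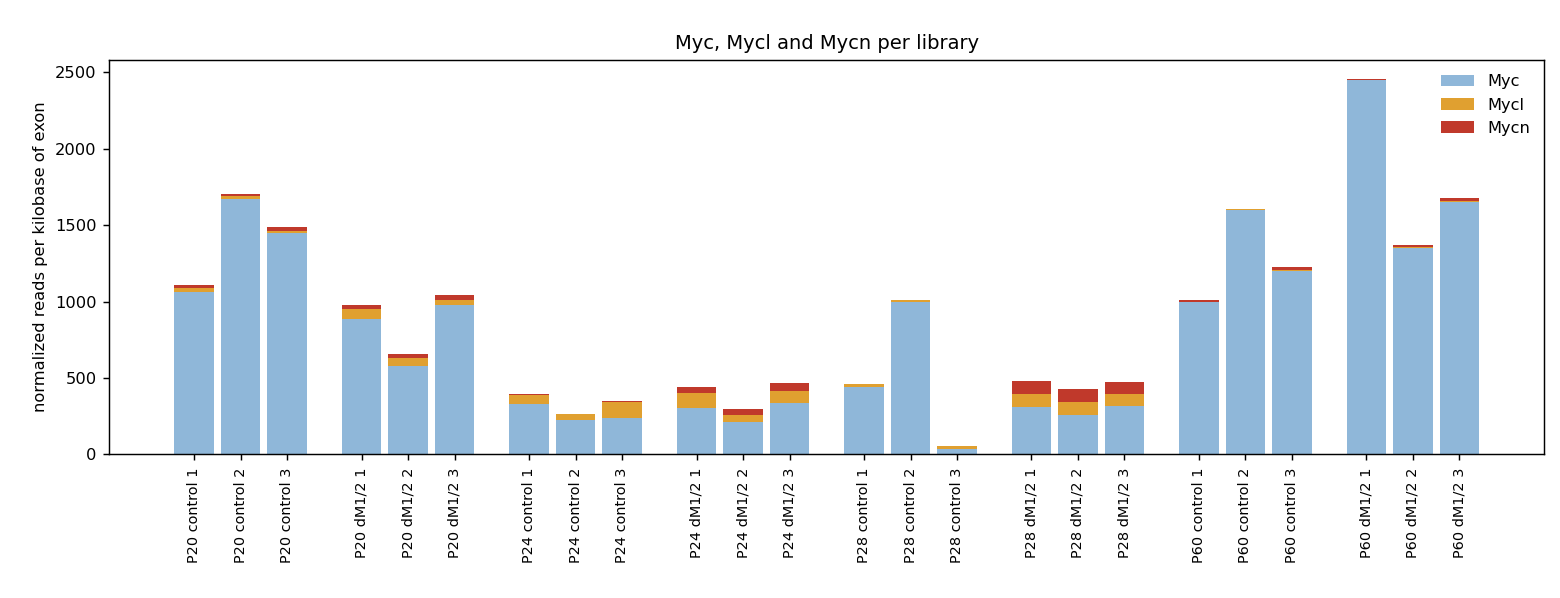
Stacked normalized reads per kilobase of exon of Myc, Mycl and Mycn in each of the 24 libraries, grouped by age and genotype. In the 3 dM1/2 libraries of P28, Mycn and Mycl together fill 33.5% to 39.6% of the bar, and P28 control 3 has the lowest total, 53.7.

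Max, the shared partner with which Myc and Mxd proteins bind DNA, showed small differences. Max (ENSMUSG00000059436) had 550.2, 568 and 481 normalized reads in P24 controls and 668, 622 and 711 in P24 dM1/2, and 679, 704 and 507 against 744, 848 and 789.7 at P28. All dM1/2 libraries were above all controls at both ages, yet the log2 fold changes of 0.32 ± 0.12 (SE, adjusted p = 0.091) and 0.35 ± 0.16 (SE, adjusted p = 0.132) missed the threshold. At P20 and P60 the groups overlapped, with log2 fold changes of -0.05 and 0.08.

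Among the repressor partners, Mxd1 and Mxi1 rose and Mxd4, the most abundant of them, did not. Mxd1 encodes Mad1, which replaces Myc on Max when many cell types stop dividing and differentiate. Mxd1 (ENSMUSG00000001156) had 428, 452 and 409 normalized reads in P28 controls and 1155, 951 and 923 in dM1/2, without overlap, a log2 fold change of 1.22 ± 0.13 (SE, adjusted p = 0.00093). At P24 the controls had 434, 682 and 765 and dM1/2 1028, 876 and 887, separated but not past the threshold, at 0.61 ± 0.21 (SE, adjusted p = 0.0744). Without P24 control 3, which had the highest Mxd1 of the P24 controls, the P24 difference was 0.77 and passed (limma, adjusted p = 0.0283). At P20 the 3 dM1/2 libraries had 1671, 1678 and 1674 and lay within the control range of 1272 to 1695. In controls Mxd1 was lower in anagen than in telogen, with a log2 difference of -1.27 ± 0.17 (SE, adjusted p = 0.000212). The mean of P28 dM1/2, 1010.0 ± 127 (SD, n = 3), lay nearer to the 1099 ± 340.1 of P60 controls than to the 429.7 ± 21.2 of P28 controls.

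Mxi1, a related repressor studied as a candidate tumour suppressor, passed the threshold at both anagen ages. Mxi1 (ENSMUSG00000025025) had 559, 553 and 632 normalized reads in P24 controls and 837, 788 and 981 in dM1/2. At P28 it had 639, 684 and 510.1 in controls and 1199, 1187 and 1075 in dM1/2. The groups were apart at both ages, with log2 fold changes of 0.58 ± 0.13 (SE, adjusted p = 0.0163) and 0.93 ± 0.14 (SE, adjusted p = 0.00353). The P24 call was lost without P24 control 2 (0.54, adjusted p = 0.0677, limma) or without P24 dM1/2 replicate 1 (0.60, adjusted p = 0.0504, limma), and the P28 call was kept in all 6 fits that left out 1 library.

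Mxd4 encodes Mad4 and held 41.9% to 68.8% of the reads per kilobase of the 5 repressor genes over the 24 libraries. Mxd4 (ENSMUSG00000037235) had 4765, 4431 and 4290.4 normalized reads in P24 controls and 3645, 3442 and 3757 in dM1/2, and 5748, 6414 and 6364 against 4923, 5194 and 4947 at P20. At these 2 ages every dM1/2 library was below every control. The log2 fold changes of -0.30 ± 0.11 (SE, adjusted p = 0.173) at P20 and -0.31 ± 0.11 (SE, adjusted p = 0.0767) at P24 missed the threshold in limma, and the P24 value passed in DESeq2 (-0.32, adjusted p = 0.0104). At P28 the controls had 5117, 5913 and 3991 and overlapped with 3762, 4446 and 4430.1, for a log2 fold change of -0.23 ± 0.18 (SE, adjusted p = 0.351).

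Mnt is a Max partner expressed in dividing and resting cells alike, where it acts as an antagonist of Myc. Mnt (ENSMUSG00000000282) had 619.8, 673 and 527 normalized reads in P28 controls and 1066, 782 and 858 in dM1/2, without overlap. The log2 fold change of 0.57 ± 0.16 (SE, adjusted p = 0.0328) passed, but the call was lost in 5 of the 6 fits that left out 1 library, the fit without P28 control 3 among them, with adjusted p from 0.0503 to 0.0893 in limma. At P24 the controls had 669, 667 and 1073 and dM1/2 1093, 1063 and 1003, where P24 control 3 lay among the dM1/2 values. The P24 log2 fold change was 0.43 ± 0.19 (SE, adjusted p = 0.145), and without P24 control 3 it was 0.65 and passed (limma, adjusted p = 0.00723).

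Zbtb17 stayed within a narrow range. Zbtb17 (ENSMUSG00000006215) had 259.7, 213 and 239 normalized reads in P28 controls and 288, 321 and 310.3 in dM1/2, and 241, 261 and 263 against 313, 295 and 324 at P24. Every dM1/2 library was above every control at both ages, with log2 fold changes of 0.28 ± 0.13 (SE, adjusted p = 0.139) at P24 and 0.37 ± 0.14 (SE, adjusted p = 0.0831) at P28, neither past the threshold. The P28 difference of 0.37 did pass when limma was fitted to all 24 libraries together (adjusted p = 0.0196). It shares 41 exonic bases with Spen on the opposite strand, which averaged 2205 normalized reads and had log2 fold changes of -0.0025 at P24 and -0.48 at P28, neither past the threshold.

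Counting members by whether the 3 dM1/2 libraries lay all above or all below the 3 controls gave 2 above and 2 below at P20, 6 above and 1 below at P24, 8 above and 0 below at P28, and 0 and 0 at P60. Over all tested genes the groups were apart, in the order of the ages, for 25.4%, 44.8%, 51.3% and 8.87%, so separation alone was common in anagen.

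The genotype effect was then compared between stages. For the mean effect over P24 and P28 minus that over P20 and P60, 4 of 10 members passed and all 4 had a larger effect in anagen, where 30.2% of all genes passed. The difference was 3.94 ± 0.52 (SE, adjusted p = 3.23e-05) for Mycn, 1.86 ± 0.41 (SE, adjusted p = 0.00214) for Mxd3, 0.94 ± 0.27 (SE, adjusted p = 0.0137) for Mxd1 and 0.65 ± 0.16 (SE, adjusted p = 0.00515) for Mxi1. For Mycl it was 0.61 ± 0.39 (SE, adjusted p = 0.266) and for Myc 0.31 ± 0.70 (SE, adjusted p = 0.782). Sex and depth move with this contrast in both genotypes, and their part in it cannot be told apart from that of stage.

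Between early and mid anagen, the effects at P28 were larger for Mxd3, Mycn and Mycl without passing in limma. The effect at P28 minus that at P24 was 1.93 ± 0.39 (SE, adjusted p = 0.0534) for Mxd3, 2.45 ± 0.67 (SE, adjusted p = 0.13) for Mycn and 2.02 ± 0.52 (SE, adjusted p = 0.11) for Mycl. In limma 0 of 10 members passed, 4 had an unadjusted p under 0.05, and 0.707% of all genes passed. edgeR called 1 member, Mxd3 (2.02, adjusted p = 0.0461), and DESeq2 called 3, Mxd3, Mycn and Mycl. In controls Mxd3 was lower at P28 than at P24, with a log2 difference of -2.11 ± 0.35 (SE, adjusted p = 0.0485), the single member of 9 tested to pass, where 1.46% of all genes did. This call was lost in all 6 fits that left out 1 library, with adjusted p from 0.0763 to 0.155 in limma. Mycl in controls had a difference of -1.76 ± 0.42 (SE, adjusted p = 0.0946) over the same days. In dM1/2 neither passed, at -0.18 ± 0.21 (SE, adjusted p = 0.72) for Mxd3 and 0.26 ± 0.23 (SE, adjusted p = 0.633) for Mycl.

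In controls, most of the network differed between the resting and the growth phase, whose libraries also differ in sex and depth. With anagen compared with telogen, 2 members were higher (Mycl by 1.70 ± 0.32 (SE, adjusted p = 0.00158) and Mxd3 by 1.05 ± 0.35 (SE, adjusted p = 0.0291)) and 6 lower, of 10, where 45.6% of all genes passed. The lower members were Myc and Mycn, Mxd1, Mnt at -0.69 ± 0.13 (SE, adjusted p = 0.00174), Mxi1 at -0.44 ± 0.13 (SE, adjusted p = 0.0182) and Max at -0.41 ± 0.11 (SE, adjusted p = 0.0095). The call of Mxd3 was lost in 7 of the 12 fits that left out 1 control library. Mxd4 (-0.14) and Zbtb17 (-0.23) did not pass.

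Genes around the network were read from 8 lists of cofactors and targets, chosen with earlier results of these data known. Over all genes, 14.8% were called higher and 11.8% lower at P24, and 20% higher and 15.6% lower at P28. The targets of Myc in ribosome making rose most widely after the proliferation genes, with 14 of 20 higher at P24 and 17 of 20 at P28 and 0 lower. Their median log2 fold change was 0.55 at P24 and 0.86 at P28, beside -0.01 and 0.00 over all genes. Rrp12, a factor for export of ribosomal subunits, had 159 ± 47.7 in controls and 773 ± 22.1 in dM1/2 normalized reads at P28 (SD, n = 3), a log2 fold change of 2.32 (limma, adjusted p = 0.000691). Rrp9, a protein of the small nucleolar particles that process ribosomal RNA, had 138 ± 16.1 in controls and 435 ± 48.3 in dM1/2 and a log2 fold change of 1.65 (limma, adjusted p = 0.000734). At P24, Rrp12 was at 1.53 (limma, adjusted p = 0.00343) and Rrp9 at 1.24 (limma, adjusted p = 0.00328). The 3 that did not pass at P28 were Ncl (0.25), Dkc1 (0.35) and Gnl3 (0.65), named after their values were seen.

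Of 24 targets in growth and metabolism, 11 were higher at P24 and 16 at P28, with 0 lower at either age and medians of 0.47 and 0.68. Dctpp1, which clears modified nucleotides, had 63.1 ± 6.44 in controls and 319 ± 31.6 in dM1/2 at P28 and a log2 fold change of 2.32 (limma, adjusted p = 0.000334). Tfrc, the transferrin receptor, had 114 ± 21.0 in controls and 424 ± 29.4 in dM1/2 and a log2 fold change of 1.90 (limma, adjusted p = 0.000691). At P24, Dctpp1 was at 1.99 (limma, adjusted p = 0.00209) and Tfrc at 1.11, which missed the threshold (limma, adjusted p = 0.0907). The targets Srm (0.81), Cdk4 (0.45), Cad (0.14) and Tert (-0.05) were among the 8 that did not pass at P28, and these 4 were picked after their values were seen. The counts moved with single libraries. Without P28 dM1/2 replicate 2 the count at P28 was 8 of 24, without P28 control 1 or P28 dM1/2 replicate 3 it was 9, and without P28 control 3 it was 15. At P24 the ribosome-making count was 7 of 20 without P24 control 2 or without P24 dM1/2 replicate 1, and 9 without P24 control 1 or P24 dM1/2 replicate 3. The growth count at P24 was 7 of 24 without P24 dM1/2 replicate 1 or 3.

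All 15 proliferation genes were higher at P28, and 13 at P24, with medians of 3.03 and 1.67. Cdk1, the kinase that drives mitosis, had 33.7 ± 17.9 in controls and 629 ± 40.5 in dM1/2 at P28 and a log2 fold change of 4.33 (limma, adjusted p = 0.000612). Bub1, of the spindle checkpoint, had 25.6 ± 12.8 in controls and 349 ± 31.8 in dM1/2 and a log2 fold change of 3.82 (limma, adjusted p = 0.000531). At P24, Cdk1 was at 1.87 (limma, adjusted p = 0.00671) and Bub1 at 1.97 (limma, adjusted p = 0.00637). The P28 count was 15 in all 6 fits that left out 1 library, and at P24 the count was 9 without P24 dM1/2 replicate 3.

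Genes that Myc represses in other cells moved both ways at P28, with 2 of 6 higher and 2 lower. The cell-cycle inhibitor Cdkn1a, also a p53 target, had 473 ± 284 in controls and 2156 ± 357 in dM1/2 and a log2 fold change of 2.45 (limma, adjusted p = 0.0143), and Gadd45a, another p53 target, 0.65 (limma, adjusted p = 0.0117). Ndrg1, a stress-response gene, fell from 6929 ± 2866 to 1784 ± 239, a log2 fold change of -1.89 (limma, adjusted p = 0.00291), and Cebpa, a factor of fat cell differentiation, had a log2 fold change of -0.92 (limma, adjusted p = 0.0429). At P24, 0 of the 6 passed in limma, 0 had an unadjusted p under 0.05, 0 passed in edgeR and 1 in DESeq2. The P24 log2 fold changes of the named genes were 0.68 for Cdkn1a, 0.06 for Gadd45a, -0.78 for Ndrg1 and -0.27 for Cebpa, with adjusted p from 0.13 to 0.865 in limma. With 1 library left out, the P28 count ran from 1 to 2 higher and from 1 to 2 lower. The P28 call was lost for Cdkn1a in 1 of 6 such fits (adjusted p up to 0.0602), for Gadd45a in 2 (up to 0.0538) and for Cebpa in 4 (up to 0.14), and for Ndrg1 in 0.

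Sin3a, the scaffold that Mxd proteins bind, was higher in dM1/2, with 1244 ± 67.7 in controls and 3170.0 ± 209 in dM1/2 at P28 and log2 fold changes of 1.12 at P24 (adjusted p = 0.00255) and 1.35 at P28 (limma, adjusted p = 0.00046). It was 1 of the 2 genes of the Sin3 list to rise at either age. Of 10 Myc coactivators, 2 were higher at P24 and 4 were higher and 2 lower at P28, beside the shares of 14.8%, 20% and 15.6% over all genes. With 1 library left out, these counts fell to as few as 1 at P24, and to 2 higher and 1 lower at P28. Ruvbl2, a helicase of chromatin complexes, was at 0.93 (adjusted p = 0.00733) and the acetyltransferase Kat2a at 0.69 (adjusted p = 0.00534), while the chromatin remodeller Bptf was at -0.84 (adjusted p = 0.0123) and Hcfc1 at -0.55 (limma, adjusted p = 0.0301). At P24 these 4 were at 0.69 for Ruvbl2 (limma, adjusted p = 0.0363), and at 0.32, -0.23 and -0.27 for Kat2a, Bptf and Hcfc1, which missed the threshold. The P24 call of Ruvbl2 was lost in 5 of 6 fits that left out 1 library (adjusted p up to 0.105) and the P28 call of Hcfc1 in 4 of 6 (up to 0.0952, limma). Of 9 genes for Myc protein turnover 3 were higher at each anagen age and 0 lower, where 14.8% and 20% of all genes were called higher at P24 and P28, with Aurka, the mitotic kinase that shields N-Myc from degradation, at 3.66 (limma, adjusted p = 0.00188) and Skp2, a ubiquitin ligase subunit, at 1.44 (limma, adjusted p = 0.00244) at P28, and at 1.49 and 1.04 at P24 (limma, adjusted p = 0.0348 and 0.0132). With 1 library left out the P24 count ran from 1 to 3, and the P24 call was lost for Aurka in 5 of 6 fits (adjusted p up to 0.121) and for Skp2 in 1 (0.0507). Of the 3 tested Max-like and Mlx-like factors, Mga was lower at P28, with a log2 fold change of -0.48 (limma, adjusted p = 0.0403), a call that was lost in 4 of 6 fits that left out 1 library, the fit without P28 control 3 among them (-0.40, adjusted p = 0.0684, limma), while at P24 it was at -0.17 and did not pass. At P20, 1 of 89 tested genes of the 8 lists passed in limma, Sin3a, a call that was lost in 5 of 6 fits that left out 1 library and in the fit over all 24 libraries. At P60, 0 of 86 tested genes passed in limma, with 3 at an unadjusted p under 0.05 and 0 in edgeR and in DESeq2.

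**Figure D4:**
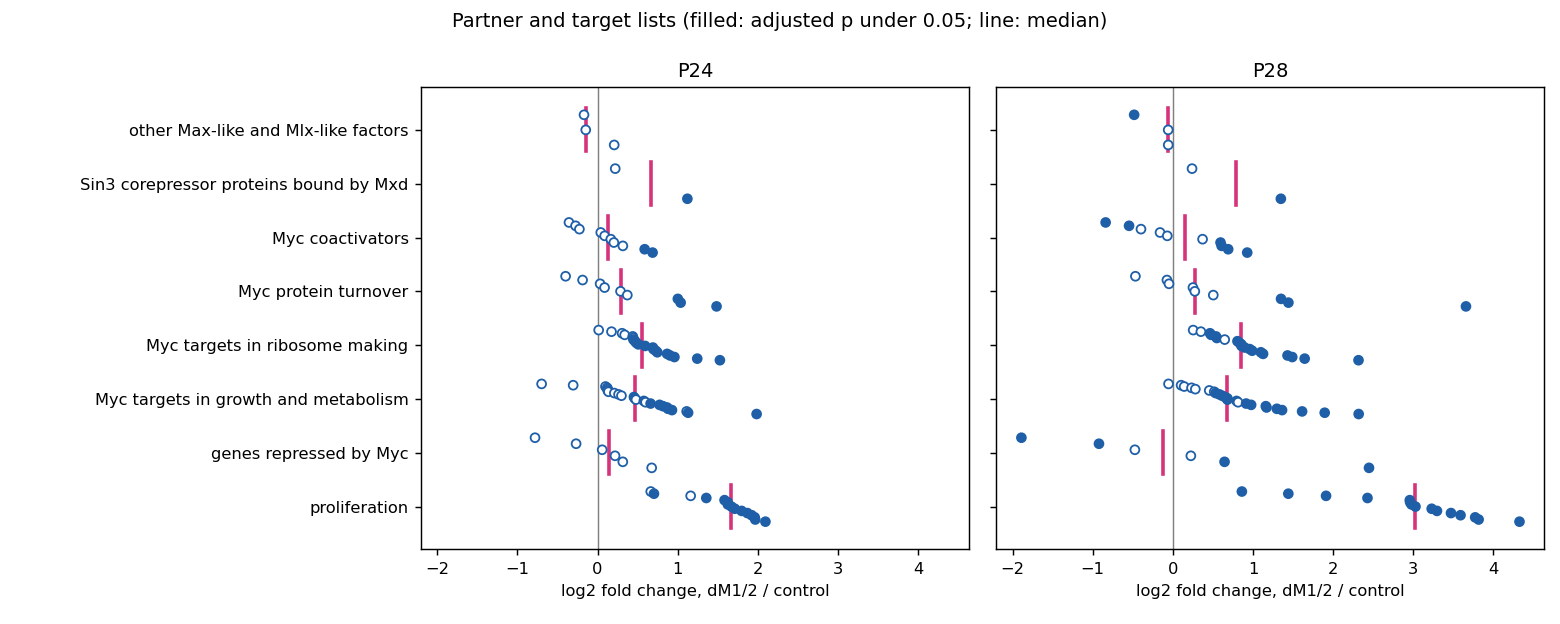
Log2 fold change between dM1/2 and control of each tested gene in the 8 lists at P24 and P28, filled where the adjusted p in limma was under 0.05, with a line at the median of each list. The ribosome-making and growth lists have medians of 0.86 and 0.68 at P28, and the list of repressed genes spreads from -1.89 to 2.45.

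Markers of the sorted cells and of their neighbours moved alongside these results. Of the 18 DP markers, 2 were higher and 9 lower in dM1/2 at P24, and 4 higher and 7 lower at P28. Their summed level in normalized reads was 428578 to 499133 in P24 controls and 221110 to 261626 in P24 dM1/2, and 228081 to 581141 against 174926 to 190223 at P28. Corin, the gene whose promoter drives the Cre, had a log2 fold change of -3.33 at P28 (limma, adjusted p = 0.000836), and the growth factor Fgf7 of -2.18 (limma, adjusted p = 0.00758), while the stem cell antigen Prom1 was at 2.76 (limma, adjusted p = 0.00487). The 15 keratinocyte markers summed to 589 to 1413 in P24 controls and 1254 to 1551 in P24 dM1/2, and to 559.7 to 982 against 1187 to 1461 at P28, where Dsp, a desmosome protein, was the 1 of 9 tested to be higher. At P24, Msx2 was higher (1.19) and Epcam (-2.47) and Krt1 (-1.39) were lower, of 11 tested. Most of that sum was Msx2, with a mean of 463 in P28 controls and 971 in dM1/2, and without Msx2 and Trp63 the other 13 markers summed to 181 to 354.5 and to 182.5 to 340.0 at P28, and to 189 to 785.7 in controls and 219 to 286 in dM1/2 at P24. Shh, a gene of the hair matrix, was at 0 in 22 of 24 libraries, Dsg3 in 10 and Krt17 in 9. Krt5, Krt10 and Dsp were above 0 in all 24, with medians of 39.3, 75.5 and 94.1 normalized reads. At P28, 0 of 4 tested melanocyte, 0 of 5 endothelial and 0 of 5 immune markers were higher in limma, and Itga8 of 5 for dermal sheath and muscle and Plin1 of 2 for adipocytes were lower. At P24, 0 of 4 melanocyte markers passed, of 5 endothelial markers Egfl7 was higher (1.04) and Pecam1 lower (-1.39), and Cd68 of 4 for immune cells (-1.37), Itga8 of 6 (-0.92) and Plin1 of 2 (-1.54) were lower. The part of the fall in DP markers in the rise of the Myc, Max and Mxd genes was not tested.

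Across the 24 libraries, the genes most like each changed member in pattern were found by Pearson's r of log2(normalized reads + 1) over 11544 genes with a mean of at least 50. These r values describe libraries that share age, sex and depth, and no test was made. Mxd3 ran with Hist1h1b (0.98) and Hist1h2bf (0.97), which are replication-dependent histones, and with Stmn1 (0.98), a regulator of microtubules in mitosis. Hist1h1b had 73.5 normalized reads in P28 controls and 1420 in P28 dM1/2, as means. Mycl ran with Marcksl1 (0.94), Cd24a (0.94) and Sox18 (0.93), of which Sox18 is also among the DP markers. Mycn ran with Mllt3 (0.92), a subunit of the elongation machinery, Mex3d (0.92), an RNA-binding protein, and Lgals7 (0.91), a galectin. Mxd1 ran with Cnksr3 (0.96), Zbtb2 (0.96) and Tfap2a (0.93), Mxi1 with Mtcl1 (0.90), Rdh10 (0.87) and Msi2 (0.85), and Mnt with Elmsan1 (0.94), Tfe3 (0.94) and Ankrd33b (0.93). Among the members themselves, r was highest for Mycl with Mxd3 (0.90), Mxd1 with Mnt (0.81) and Mycn with Mxi1 (0.77), and lowest for Myc with Mycl (-0.61).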

How the data were processed

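RNA of sorted DP cells was measured in 24 libraries, 3 for each of 2 genotypes and 4 ages. The authors trimmed reads with Trimmomatic, aligned them with TopHat2 to mm10 and counted them per gene with HTSeq. The deposited signal is the number of reads on a gene, scaled by DESeq2 size factors, and dividing by the value of 1 read gave whole reads (tolerance 0.001) for 100% of values. The authors' columns of mean, fold change, statistic and p-values were not used. The depth on genes (8171944 to 49331751 reads) limits low genes, and 3 reads were taken as the limit of an absent gene.

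Groups came from the labels, and nothing in them ties libraries to litters, so p-values measure the spread between these samples. The main test was limma 3.58.1, fitted to log2(normalized reads + 1) with its trend option and read two-sided, on genes whose normalized reads averaged 10 or more in the fitted libraries. P-values were adjusted over all these genes by the Benjamini-Hochberg method, with a threshold of 0.05. Alternatives were an added constant of 10, no filter, replicate numbers as a block, edgeR 4.0.16 and DESeq2 1.42.0 on the recovered reads (calling 3746 and 4704 genes at P24, and 4918 and 5827 at P28), a single limma fit of the 24 libraries, and the removal of libraries in turn. The removal of libraries for the gene lists and a constant of 10 for the pattern likeness were added after seeing the data. Scripts were tested on simulated data. The members and lists were chosen with earlier results of these data known. Named were all members, Hdac1 and Hdac2, up to 2 rises and 2 falls per list at P28 by size, and the 3 genes most like each changed member. Replicate numbers were not used as pairs in the main test. Same-numbered deviations correlated from -0.39 to 0.30, all positive at P20 and P60 and of either sign at P24 and P28. Such correlations, over so few libraries, cannot exclude shared litters or batches. Positions are those of the GENCODE annotation of GRCm38, and 9 of 10 members had a promoter window.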

Additional observations from a re-analysis of the deposited data

Results flagged for a closer look

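For 4 of the 10 members the effect of genotype differed between the growth phase and the resting phase, by an interaction term in limma over all 24 libraries. The same term passed for 30.2% of all 14243 tested genes. The effect on the log2 scale in anagen (P24 and P28) minus that in telogen (P20 and P60) was 3.94 for Mycn (adjusted p = 3.23e-05), 1.86 for Mxd3 (adjusted p = 0.00214), 0.94 for Mxd1 (adjusted p = 0.0137) and 0.65 for Mxi1 (adjusted p = 0.00515). In the 24 fits that left out 1 library these values stayed between 3.61 and 4.21, 1.62 and 2.07, 0.73 and 1.08, and 0.54 and 0.73. The anagen libraries were deeper and carried reads of Ddx3y, and the telogen libraries carried reads of Xist, so that sex and depth cannot be told apart from stage.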

How the results depend on the processing

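Of 1125 member values under an alternative, 1034 kept direction and side of the threshold, 32 fell short of it, 27 newly passed and 32 turned sign. Between dM1/2 and control, the count of members past the threshold was 3 at P24 and 6 at P28 in limma and in both edgeR scalings. DESeq2 called 4 at P24, and the fit over all 24 libraries 7 at P28, Zbtb17 being the one added. At P20 the count of 0 became 2 in DESeq2. From P24 to P28, the control count of 1 became 0 with no filter or in either edgeR scaling, and 2 in DESeq2 or in the fit over all libraries. The dM1/2 count of 1 became 2 in DESeq2 and 0 in the fit over all libraries. For the effect at P28 minus that at P24, the count of 0 became 1 with 10 added or in either edgeR scaling, and 3 in DESeq2. Of all genes, limma, edgeR and DESeq2 called 60, 78 and 663 at P20, 204, 143 and 1494 from P24 to P28 in controls, 375, 352 and 1127 in dM1/2, and 100, 103 and 595 for the effect at P28 minus that at P24. The cause of these changes was not tested.

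Values for Myc turned sign between limma and the count models. Its P28 log2 fold change was -0.70 in edgeR, -0.73 in edgeR with DESeq2 size factors and -0.75 in DESeq2. From P24 to P28 in controls it was 0.87, 0.87 and 0.91, for the effect at P28 minus that at P24 -0.86, -0.82 and -0.85, and for anagen minus telogen -0.16, -0.19 and -0.19, in the same order.

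With 1 library left out, the count of members past the threshold ran from 0 to 2 at P20, from 2 to 5 at P24, at 0 from P24 to P28 in controls, from 0 to 1 in dM1/2, and from 0 to 2 for the effect at P28 minus that at P24. Log2 fold changes that turned sign in such fits ran, at P20, from -0.14 to 0.054 for Max, -0.22 to 0.69 for Mxd3, -0.15 to 0.0049 for Zbtb17 and -0.063 to 0.046 for Hdac2. At P24 they ran from -0.055 to 0.29 for Myc, -0.12 to 0.66 for Mycl, -0.35 to 0.0049 for Bptf and -0.054 to 0.25 for Gadd45a. At P28 they ran from -1.17 to 1.27 for Myc and -1.13 to 0.029 for Hdac1, with P28 control 3 and P28 control 2 left out in turn. At P60 they ran from -0.37 to 0.36 for Mycl, -0.010 to 0.18 for Max, -0.55 to 0.16 for Mxd1, -0.19 to 0.20 for Mxi1 and -0.018 to 0.16 for Hdac2. For Myc they ran from -1.11 to 1.33 from P24 to P28 in controls, -1.25 to 1.19 for the effect at P28 minus that at P24, and -0.40 to 0.82 for anagen minus telogen.

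With the replicate number as a block, the count of members was 1 at P20 (Mycl at 1.34, adjusted p = 0.0266, limma), 3 at P24, 5 at P28 (without Mnt, adjusted p = 0.0668), 0 from P24 to P28 in controls and 5 for anagen minus telogen (with Max). Hdac1 passed at P20 with this block (-0.72, adjusted p = 0.0445). The ribosome-making count at P24 was 7 of 20 with this block. No share of all genes is given for this block, the fit over all 24 libraries or the fits that left out 1 library. The member counts of those fits are therefore not set against such a share. Same-numbered libraries did not all correlate best with each other, so the numbers were not read as pairs. In the fit over all 24 libraries, 7 of 15 proliferation genes passed at P24. Low reads limit Mycn in controls at P28 and Mxd3 at P60, and telogen libraries were shallower than anagen libraries, so smaller differences may have been missed there.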

Other observations

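Myc passed in none of the main limma fits of genotype, so its likeness to other genes lies outside the naming rule. It was looked at after the values of Myc were seen. Over the 24 libraries Myc ran most closely with Ccl7, a chemokine (r = 0.97), Fgl2, a secreted fibrinogen-like protein (0.97), and Il6, a cytokine (0.97). Ccl7 had mean normalized reads of 6820 in P20 controls, 953 in P24 controls, 1500 in P28 controls and 4760 in P60 controls, the same order as Myc. These libraries share stage, sex and depth, and r was taken as a description.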
